A study of Mus musculus with 4 samples.

Results

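The 10 genes described here are 3 classical cadherins (Cdh1, Cdh2 and Cdh3), 2 mesenchymal proteins (Vim and Fn1) and 5 transcription factors of epithelial to mesenchymal transition (Snai1, Snai2, Twist1, Zeb1 and Zeb2). They were picked by symbol as known transition genes from the 22609 in the deposited tables, with earlier results of these data known, and all 10 passed the filter on low counts. RNA was sequenced from mammospheres, floating colonies grown for 7 days from FACS-sorted basal mammary cells of Balb/C mice whose glands were taken at 4 months of age. The BPA+DMBA mice were gavaged from day 21 with bisphenol A (BPA, an estrogenic plastics monomer), 25 µg/kg each day over 3 weeks. At 2 months they were also gavaged once with DMBA, the chemical carcinogen 7,12-dimethylbenz[a]anthracene, at 30 mg/kg. The DMBA mice received sesame oil and then DMBA, the BPA mice received BPA only, and the control mice received sesame oil only; all were kept on a low-phytoestrogen diet. Each group is 1 library from spheres of 5 pooled animals, so no difference below has a replicate check, and the spread between animals is unknown.

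In epithelial to mesenchymal transition, epithelial cells lose adherens junctions and apical-basal polarity and take on a motile, matrix-producing state. The Snail, Twist and Zeb proteins repress Cdh1 and other junction genes by binding E-box sequences in their promoters, and loss of Cdh1 with gain of Cdh2, Vim and Fn1 is the usual readout. In the mammary gland Cdh1 is made by luminal and basal cells, whereas Cdh3 (P-cadherin) and Snai2 are characteristic of the basal layer. Vim, Fn1 and the Zeb genes are also strongly expressed by fibroblasts. In RNA from whole spheres, fewer cells of a type and less RNA per cell cannot be told apart.

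Promoter sequence is shown for the members with an entry in the RefSeq promoter table used here, since E-boxes are the sites through which these factors act and several of them regulate each other. The table (GRCm38.p6) held windows for 4 of the 10 members, and the 250 bases before the start site are printed 5′ to 3′ on the gene's strand. They lie at chr2:13574061-13574310 (Vim, plus strand), chr2:167537945-167538194 (Snai1, plus strand), chr12:33957421-33957670 (Twist1, plus strand) and chr2:45117443-45117692 (Zeb2, minus strand, the most upstream of its windows). Capitals mark the E-box CACCTG, searched on both strands (CAGGTG on the other).
Vim: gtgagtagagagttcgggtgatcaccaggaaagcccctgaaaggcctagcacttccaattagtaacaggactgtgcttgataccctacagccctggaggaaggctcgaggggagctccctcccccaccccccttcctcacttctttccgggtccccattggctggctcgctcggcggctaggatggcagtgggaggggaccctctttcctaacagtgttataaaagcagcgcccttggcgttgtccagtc
Snai1: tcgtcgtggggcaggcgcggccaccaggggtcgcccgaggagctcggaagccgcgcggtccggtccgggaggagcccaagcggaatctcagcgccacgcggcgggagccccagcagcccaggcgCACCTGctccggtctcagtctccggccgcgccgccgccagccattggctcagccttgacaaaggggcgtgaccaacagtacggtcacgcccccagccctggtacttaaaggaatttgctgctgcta
Twist1: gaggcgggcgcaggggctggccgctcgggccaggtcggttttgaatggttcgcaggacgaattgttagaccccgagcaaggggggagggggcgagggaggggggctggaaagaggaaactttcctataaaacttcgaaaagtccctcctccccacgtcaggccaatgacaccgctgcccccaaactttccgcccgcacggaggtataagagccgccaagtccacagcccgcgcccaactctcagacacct
Zeb2: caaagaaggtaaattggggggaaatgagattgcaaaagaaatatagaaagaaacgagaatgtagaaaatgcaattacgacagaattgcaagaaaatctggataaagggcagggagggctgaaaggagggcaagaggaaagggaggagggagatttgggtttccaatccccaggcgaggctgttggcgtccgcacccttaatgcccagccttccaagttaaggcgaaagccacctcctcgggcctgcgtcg
Among the 4 members shown, the E-box was found in Snai1 only, with its first base 126 bases before the start site. Of all 32851 windows of this length in the table, 17.2% held it. The Snai1 window was 70.0% G and C with 27 CpG sites, against 58.4% and 8 for Vim, 62.4% and 18 for Twist1, and 49.6% and 9 for Zeb2. Over all windows the median was 52.4% with 6 CpG sites. A match is a description of letters and not of a bound site.

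The libraries held 15672532 to 30627055 counts in genes, BPA+DMBA being the shallowest and control the deepest, and no pair of libraries held the same values. The basal label was checked against its markers. Krt5, the basal keratin, was at 468, 559, 149 and 118 CPM (counts scaled to library size) in BPA+DMBA, DMBA, BPA and control, and Krt14, its partner, was at 812, 878, 316 and 299 CPM. The 13 basal markers summed to 2641, 3215, 1341 and 1201 CPM in that order. Luminal markers were present as well, summing over 16 genes to 3946, 3806, 4890 and 4587 CPM. The 15 fibroblast markers summed to 13202, 8251, 9381 and 12763 CPM, with none at 0 in any library. Of these sums the basal one was the lowest in every library. The labels name sorted basal cells, and transcripts of all 3 kinds were thus measured in every library.

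Fn1, Vim and Cdh1 were the abundant members and the transcription factors were scarce. Per kilobase of transcript, the mean level over the 4 libraries was 478 CPM for Fn1 (fibronectin), 339 for Vim (vimentin, the mesenchymal intermediate filament) and 258 for Cdh1 (E-cadherin). The remaining members lay far lower, at 18.1 CPM per kilobase for Cdh3, 15.5 for Snai1, 10.1 for Zeb2, 9.40 for Cdh2, 8.45 for Snai2, 7.96 for Zeb1 and 6.80 for Twist1. Fn1 ranked 5, 8, 6 and 4 among 13638 genes by count in BPA+DMBA, DMBA, BPA and control. Cdh3 had the widest range of the 10, with 3.19-fold between its highest and lowest library, and Cdh1 had the narrowest, with 1.18-fold. The other 8 spanned 1.26-fold to 1.84-fold.

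**Figure D1:**
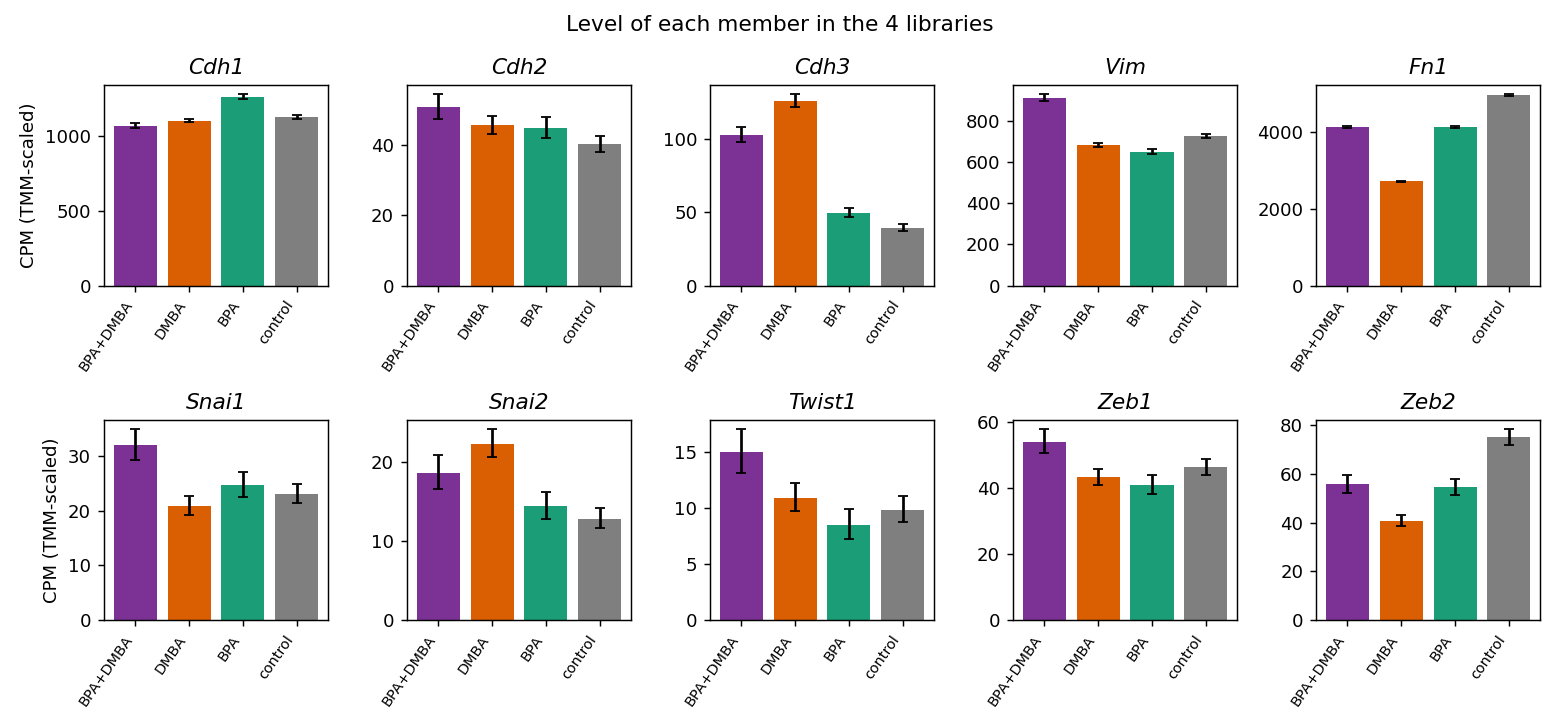
Level of each member (vertical axes, CPM, linear from 0) in the BPA+DMBA, DMBA, BPA and control libraries, 1 library each. Error bars are 95% Poisson counting intervals; Cdh3 stands at 103 and 126 CPM in the libraries with DMBA, against 49.6 and 39.6 CPM in those without.

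Among the cadherins, Cdh3 rose with DMBA while Cdh1 and Cdh2 did not pass the test. Cdh3, the adhesion molecule of basal and myoepithelial cells, was at 103 CPM in BPA+DMBA and 126 CPM in DMBA, against 49.6 CPM in BPA and 39.6 CPM in control. Both libraries with DMBA were above both without, as for 31.7% of all genes. In the additive model of both exposures the DMBA term was 1.37 on the log2 scale (SE 0.144), a 2.58-fold rise (edgeR quasi-likelihood test, Benjamini-Hochberg adjusted p = 0.00536). The single pairs gave log2 ratios of 1.05 (95% counting interval 0.93 to 1.17) for BPA+DMBA against BPA and 1.67 (1.58 to 1.77) for DMBA against control. Cdh3 was the only member past 2-fold in either pair, where 3.74% of all genes in the first and 6.55% in the second passed that rule.

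Cdh1, the epithelial cadherin whose loss defines the transition, was at 1069, 1104, 1263 and 1131 CPM in BPA+DMBA, DMBA, BPA and control. The libraries with DMBA lay just under the others, where 31.6% of all genes were lower without overlap. The DMBA term of Cdh1 was -0.14 on the log2 scale (SE 0.110, edgeR adjusted p = 0.440). Cdh2, the neural cadherin gained in the transition, was at 50.9, 45.8, 45.1 and 40.3 CPM in the same order. Its DMBA term was 0.18 on the log2 scale (SE 0.0806, edgeR adjusted p = 0.185).

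The proportions of the 3 cadherins need no scaling between libraries. Per kilobase, Cdh3 made up 8.51% and 10.0% of the cadherin total in BPA+DMBA and DMBA, against 3.70% and 3.31% in BPA and control. Cdh2 made up 3.82%, 3.29%, 3.04% and 3.05% in that order, and Cdh1 the rest, 87.7%, 86.7%, 93.3% and 93.6%. Put as counts, there were 10.4 and 8.76 Cdh1 counts for each Cdh3 count with DMBA, against 25.5 and 28.6 without. Cdh3 and Cdh1 are neighbouring genes, with no protein-coding gene annotated between them (GRCm38.p6).

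Basal markers moved with Cdh3. Of the 13 listed, 8 rose with DMBA and 0 fell, where 6.67% of all genes were called higher and 7.72% lower. The summed level of the 13 was 2641 and 3215 CPM in BPA+DMBA and DMBA, against 1341 and 1201 CPM in BPA and control. Krt5 rose by 1.95 on the log2 scale (SE 0.145, edgeR adjusted p = 0.00274). Whether more basal cells account for the Cdh3 difference was not tested. The 3 genes nearest to Cdh3 in pattern, by the largest difference in centred log2 CPM over the 4 libraries among 9875 genes, were Extl1, Lmo1 and Pik3r5. Extl1 was at 15.0, 18.8, 7.21 and 5.73 CPM in BPA+DMBA, DMBA, BPA and control and never differed from the Cdh3 pattern by more than 0.0184 on that scale. Lmo1, at 12.1, 14.6, 5.80 and 4.72 CPM in the same libraries, and Pik3r5 followed, within 0.0304 and 0.0611.

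Of the 5 transcription factors, Snai2 rose with DMBA and the other 4 did not pass the test. Snai2 (Slug), a repressor of Cdh1 and a basal-cell factor in the mammary gland, was at 18.6 and 22.4 CPM in BPA+DMBA and DMBA, against 14.4 and 12.9 CPM in BPA and control. Both groups with DMBA were above both without, as for 31.7% of all genes. Its DMBA term was 0.59 on the log2 scale (SE 0.141), a 1.51-fold rise (edgeR adjusted p = 0.0398). That call was lost under RLE scaling (adjusted p = 0.0550 in edgeR) and in DESeq2 (adjusted p = 0.205), with log2 terms of 0.59 in both. With DMBA as the only term Snai2 was called on all 4 libraries (edgeR adjusted p = 0.0191). Its log2 term was then 0.51 without control and 0.45 without DMBA. BPA is unbalanced in those 1-term fits with a library left out, so they say nothing about stability.

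Snai1 (Snail), the paralogue of Snai2, was at 32.0, 20.8, 24.7 and 23.1 CPM in BPA+DMBA, DMBA, BPA and control. It was highest with both exposures, and its DMBA term was 0.11 on the log2 scale (SE 0.141, edgeR adjusted p = 0.644). Within a library, the log2 ratio of Snai2 to Snai1 counts was -0.78 in BPA+DMBA, 0.10 in DMBA, -0.78 in BPA and -0.84 in control. The DMBA library alone had about equal counts of both.

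Twist1, a bHLH inducer of the transition, was at 15.0, 10.9, 8.52 and 9.84 CPM in BPA+DMBA, DMBA, BPA and control, on 163 to 304 counts a library. Both libraries with DMBA were above both without, as for 31.7% of all genes. The DMBA term of Twist1 was 0.46 on the log2 scale (SE 0.190, edgeR adjusted p = 0.156). Zeb1, a zinc-finger repressor of Cdh1, was at 54.1, 43.3, 40.9 and 46.3 CPM in the same order. Its DMBA term was 0.15 on the log2 scale (SE 0.127, edgeR adjusted p = 0.479). Zeb2, its paralogue, was at 55.8, 40.8, 54.7 and 75.1 CPM, highest in control and lowest in DMBA. Its DMBA term was -0.44 on the log2 scale (SE 0.196, edgeR adjusted p = 0.186). An antisense gene overlaps Zeb2, and without a stated strand setting their reads cannot be told apart.

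Vim and Fn1, the mesenchymal readouts, did not pass the test for DMBA. Vim was at 912, 682, 649 and 726 CPM in BPA+DMBA, DMBA, BPA and control, with a DMBA term of 0.20 on the log2 scale (SE 0.148, edgeR adjusted p = 0.403). Only the library with both exposures stood above the rest. Fn1 was at 4128, 2709, 4127 and 4948 CPM in the same order, with a DMBA term of -0.43 on the log2 scale (SE 0.220, edgeR adjusted p = 0.233). The pair with BPA was level, at a log2 ratio of 0.00 for BPA+DMBA against BPA, while DMBA against control gave -0.87 (95% counting interval -0.88 to -0.86).

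Over the 10 members, 2 rose with DMBA and 0 fell, where 14.4% of all 13638 genes were called (6.67% higher and 7.72% lower), so the members' share was near the background. The median DMBA term was 0.16 for the members and -0.00 for all genes on the log2 scale. Libraries with and without DMBA did not overlap for 5 members, Cdh2, Cdh3, Snai2 and Twist1 higher and Cdh1 lower, where 31.7% of all genes were higher without overlap and 31.6% lower, 63.3% in all. Past 1.5-fold, 4 members passed in DMBA against control (Cdh3 and Snai2 higher, Fn1 and Zeb2 lower; background 15.1%), and Cdh3 and Twist1 were higher in BPA+DMBA against BPA (background 10.4%). Log2 ratios also ran with transcript length across 13510 genes, at a Spearman correlation of -0.297 for DMBA against control, and of -0.339 for BPA+DMBA against BPA. After correction for length Cdh3 was still called, and Snai2, at 0.48 on the log2 scale, was not (edgeR adjusted p = 0.105).

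**Figure D2:**
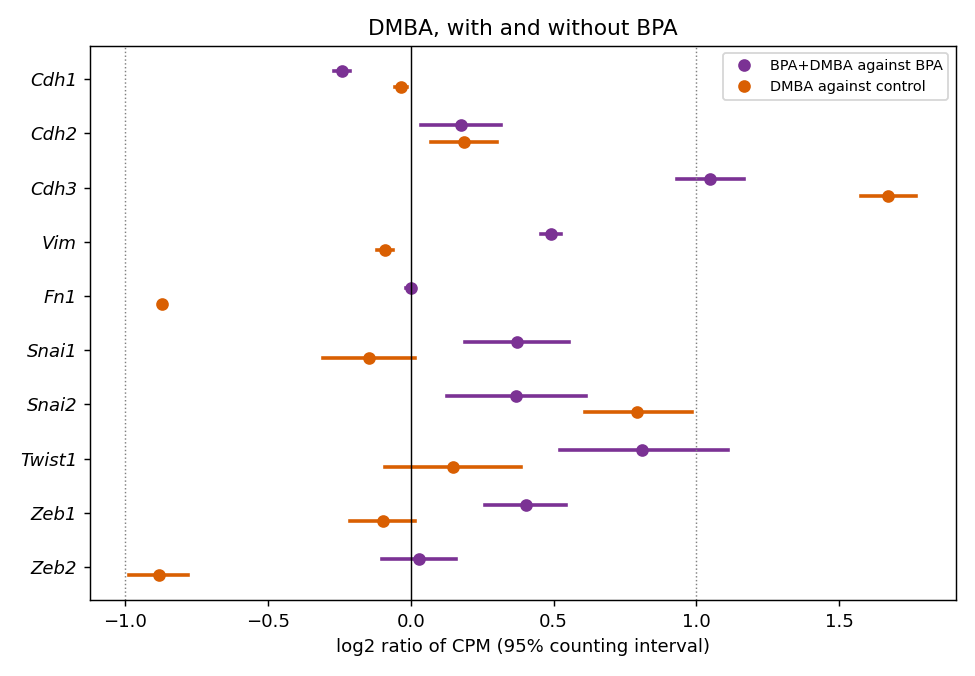
Log2 ratio of CPM for each member (horizontal axis) with its 95% counting interval, for BPA+DMBA against BPA above DMBA against control. Cdh3 lies at 1.05 and 1.67, while Fn1 lies at 0.00 and -0.87.

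No member passed the test for BPA. The edgeR quasi-likelihood test called 0 of 10 (background 0% of 13638 genes), with adjusted p = 0.999 for each, and DESeq2 also called 0 of 10. At an unadjusted p under 0.05 there was 1, Snai1, with a BPA term of 0.36 on the log2 scale (SE 0.141, edgeR unadjusted p = 0.0413). By that p, Snai1 ranked 242 among the 13638 genes. Snai1 was also the only member whose libraries with BPA did not overlap those without, where 17.1% of all genes did not. No member was past 2-fold in BPA+DMBA against DMBA (background 1.09%) or in BPA against control (background 0.829%). Past 1.5-fold were Fn1 and Snai1, both higher in BPA+DMBA against DMBA (background 4.11%), and 0 members in BPA against control (background 2.82%). Of the members in BPA+DMBA against control, 1 was past 2-fold, Cdh3 (log2 ratio 1.37, background 4.38%), and 2 past 1.5-fold, Cdh3 and Twist1 (background 11.7%).

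In 6 members the BPA difference had opposite signs with and without DMBA and both counting intervals excluded equality; the difference was not tested. Twist1 and Snai2 also changed sign, with an interval for BPA against control that held equality. Fn1 had a log2 ratio of 0.61 (95% counting interval 0.59 to 0.62) for BPA+DMBA against DMBA and -0.26 (-0.27 to -0.25) for BPA against control. Zeb2 gave 0.45 and -0.46, Vim 0.42 and -0.16, and Zeb1 0.32 and -0.18, in the same pairs. For these 4 the BPA library was lower without DMBA and higher with it, both intervals excluding equality, as for 4.65% of all genes. Cdh3 ran the other way, at -0.30 and 0.33, as did Cdh1 at -0.05 and 0.16, a pattern of 3.84% of all genes. The first pattern also held for 12 of 15 fibroblast markers and 12 of 24 mesenchymal genes, and the second for 0 and 3 of them. Among 18 epithelial junction genes, 1 held the first and 9 the second. These intervals cover counting error only, so abundant genes exclude equality at smaller ratios than scarce ones.

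The difference between those ratios, the departure from additivity, was 0.91 for Zeb2 (95% counting interval 0.74 to 1.07) and 0.87 for Fn1 (0.85 to 0.89) on the log2 scale. Twist1 followed at 0.66, Vim at 0.58, Snai1 at 0.52 and Zeb1 at 0.50. It was -0.62 for Cdh3, -0.42 for Snai2 and -0.21 for Cdh1, and -0.01 for Cdh2, whose interval (-0.19 to 0.17) held 0. No member departed by 2-fold, where 3.1% of all genes did. The interaction is the only residual spread in the additive model, so its size cannot be tested here.

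**Figure D3:**
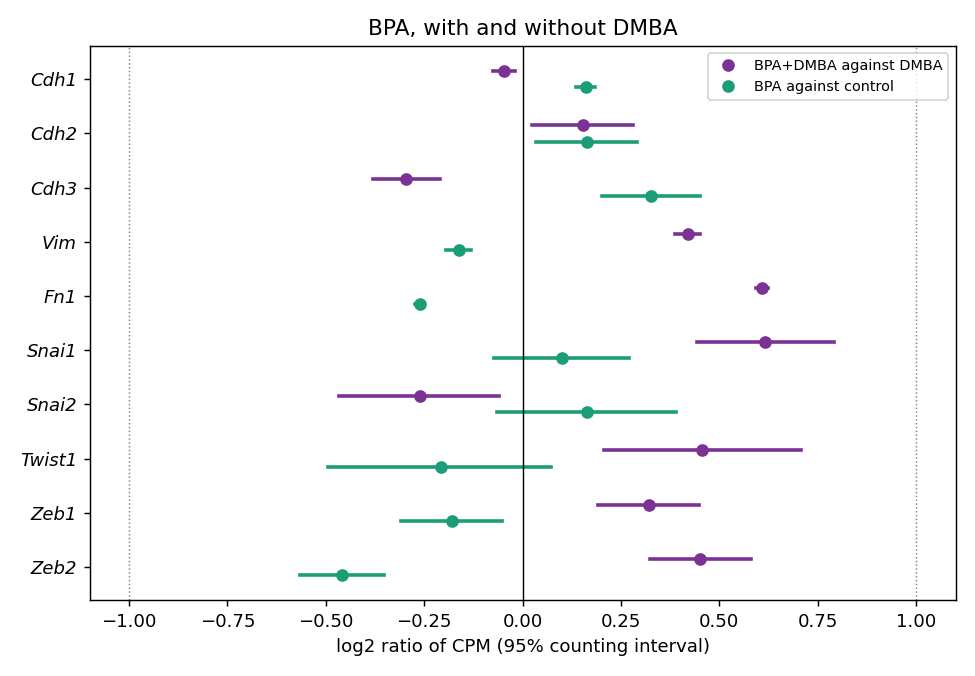
Log2 ratio of CPM for each member (horizontal axis) with its 95% counting interval, for BPA+DMBA against DMBA above BPA against control, with dotted lines at 2-fold. Fn1, Zeb2, Vim and Zeb1 lie on opposite sides of 0 in the 2 pairs, at 0.61 and -0.26 for Fn1.

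Fibroblast markers ran in the same direction as Fn1, Vim, Zeb1 and Zeb2 in both BPA pairs. Their summed level was 1.60-fold in BPA+DMBA over DMBA and 0.735-fold in BPA over control. All 15 were above 0 on the log2 scale in the first pair (median 0.52) and 2 of 15 in the second (median -0.34). The same medians over the 10 members were 0.37 and -0.03. In BPA+DMBA against BPA the marker sum was 1.41-fold (14 of 15 above 0, median 0.50), where Vim was at 0.49 and Zeb1 at 0.40 on the log2 scale but Fn1 at 0.00 and Zeb2 at 0.03. In DMBA against control the sum was 0.646-fold (log2 ratio -0.63), with 4 of 15 markers above 0 and a median of -0.34. There Fn1 was at -0.87 and Zeb2 at -0.88 but Vim at -0.09 and Zeb1 at -0.10 on the log2 scale. The part of fibroblast RNA in the values of Fn1, Vim, Zeb1 and Zeb2 was not tested. Early-response genes also differed: Fos was at 430, 471, 115 and 597 CPM and Fosb at 194, 219, 26.3 and 332 CPM in BPA+DMBA, DMBA, BPA and control, lowest in BPA, and their part was not tested.

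**Figure D4:**
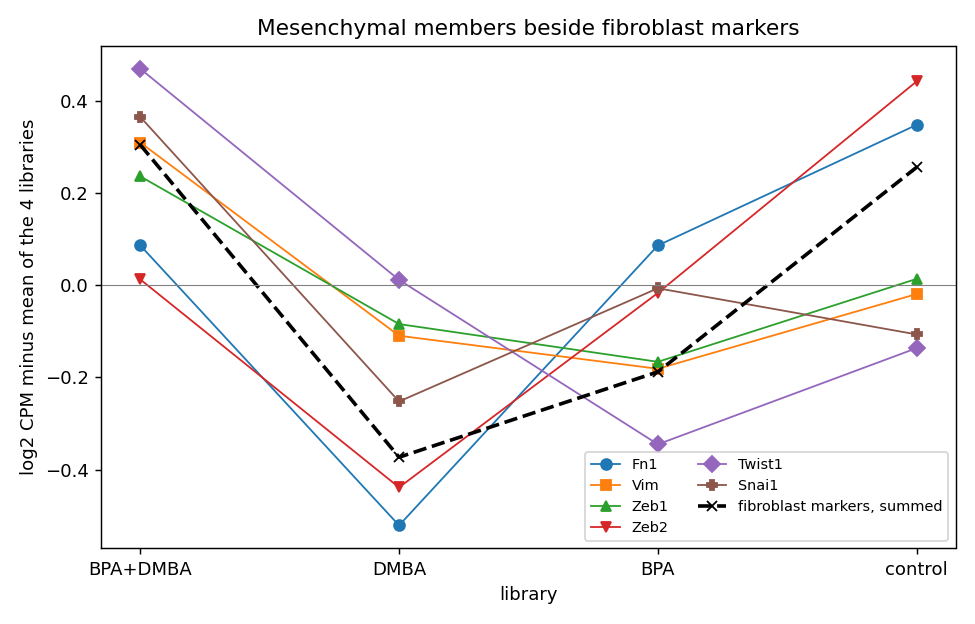
Log2 CPM minus its mean over the 4 libraries (vertical axis) for Fn1, Vim, Zeb1, Zeb2, Twist1 and Snai1 and for the sum of 15 fibroblast markers, in BPA+DMBA, DMBA, BPA and control. Lines only join libraries; the marker sum is 13202, 8251, 9381 and 12763 CPM in that order.

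The other genes of the transition were read from lists, whose counts stand beside the 14.4% of all genes called for DMBA. Of 15 kept other transcription factors of the transition, 0 were called for DMBA by edgeR, with a median of -0.01 on the log2 scale. Of 14 kept factors that hold the epithelial state, 3 rose and 4 fell. Ovol1, a zinc-finger repressor of Zeb genes, rose by 1.19 (SE 0.158, edgeR adjusted p = 0.00944), and Grhl3, a grainyhead factor of epidermal barrier formation, by 1.13 (SE 0.116, edgeR adjusted p = 0.00508), both on the log2 scale. Grhl1 rose by 0.52 on that scale (edgeR adjusted p = 0.0302). Elf5, a luminal progenitor factor, fell by 0.42, and Gata3, the luminal regulator, by 0.34. Grhl2 also fell, by 0.30 (edgeR adjusted p = 0.0396).

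Among 18 epithelial junction genes, 1 rose and 2 fell with DMBA. Dsp, the desmosomal plaque protein, rose by 0.59 on the log2 scale. Muc1, listed with the junction genes though an apical luminal mucin, fell by 1.70, and Cgn, a tight junction protein, fell by 0.52. Of 24 mesenchymal genes, 4 rose (Mmp3, S100a4, Wnt5a and Plaur) and 0 fell; in this list and the junction genes the share called was near that of all genes. Mmp3, a matrix metalloproteinase, was at 570, 443, 249 and 297 CPM in BPA+DMBA, DMBA, BPA and control. Of 14 TGF-beta genes, 0 rose and 5 fell, among them the ligands Tgfb2, by 0.66, and Tgfb3, by 0.55, and the latent TGF-beta binding protein Ltbp2, by 1.28. Of 11 kept cadherin-catenin genes only Mllt4 (afadin) passed, falling by 0.33.

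Among 7 kept other classical cadherins, Cdh5 rose and Cdh19 fell. Cdh5, the endothelial cadherin, was at 25.3, 23.1, 15.8 and 11.4 CPM in BPA+DMBA, DMBA, BPA and control. A list of 13 genes marking endothelial cells and pericytes had 7 called higher for DMBA by edgeR and 0 called lower. The summed level of that list did not follow these calls in both pairs. It was 0.917-fold in DMBA over control (581 against 634 CPM) and 1.44-fold in BPA+DMBA over BPA (791 against 551 CPM). The part of such cells in the Cdh5 values was not tested. Cdh19 had 4, 11, 37 and 46 counts in BPA+DMBA, DMBA, BPA and control. Cdh6 and Cdh10 did not pass the test and each had a log2 ratio of -1.03 for DMBA against control.

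Of the 16 luminal markers 3 rose and 6 fell with DMBA, and of the 15 fibroblast markers 3 rose (Dpt, Fbln1 and Dcn) and 0 fell. BPA called 0 genes in every list by edgeR. The departure from additivity had a median of 0.51 on the log2 scale over the members, 0.43 over the mesenchymal genes, 0.91 over the fibroblast markers, -0.22 over the junction genes and -0.01 over all genes.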

How the data were processed

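RNA was measured in 4 mammosphere libraries, 1 per group. The values deposited by the authors are raw counts of reads for each gene symbol. CASAVA 1.8.2, HTSeq, DESeq and the build mm9 appear in the submitters' processing notes. Which aligner and strand setting were used is not given in the sources used here. Entries for reads given to no gene were left out of library sizes: reads outside genes were 11.3% to 13.5% of a library, reads placed more than once 22.9% to 25.6%, and reads on overlapping genes 0.435% to 0.449%.

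A gene entered the analysis if any library gave it 20 counts or more (13638 genes). Scaling was by TMM in edgeR 4.0.16 (R 4.3.3). An additive model of BPA and DMBA over the 4 libraries was tested by edgeR's quasi-likelihood test Benjamini-Hochberg adjusted over every kept gene, at 0.05. Its 1 residual degree of freedom is the interaction. Single pairs are log2 ratios of CPM with a prior count of 2 and exact 95% Clopper-Pearson intervals of the count ratio; past 2-fold means at least 2-fold with an interval excluding equality. Departure from additivity has a normal counting interval. Intervals cover counting error only. Lengths are of the longest GENCODE transcript linked to RefSeq, matched for 99.1% of kept genes.

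The members and gene lists were chosen with earlier results of these data known. Named genes are all 10 members, list genes called by the fit or past 2-fold in a pair, and the 3 genes nearest in pattern to a member spanning a log2 range of at least 1. Fos and Fosb passed the pair rule. The additive, DESeq2 and likelihood ratio tests, the pair and departure rules and the length correction were run on data simulated without an interaction. Only the additive test (sign of the largest planted changes, calls among unchanged genes) and the pair intervals were held to a limit. Fits with 1 term or a library left out were not run on simulated data. DESeq2 1.42.0, scalings, filters, thinning, length correction and left-out libraries were the alternatives.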

Additional observations from a re-analysis of the deposited data

Results flagged for a closer look

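For 6 members the BPA difference had opposite signs with and without DMBA, with every counting interval excluding equality; with 1 library a group the difference between these effects was not tested. As log2 ratios, BPA+DMBA against DMBA and then BPA against control gave 0.61 and -0.26 for Fn1, 0.45 and -0.46 for Zeb2, 0.42 and -0.16 for Vim, and 0.32 and -0.18 for Zeb1. They gave -0.30 and 0.33 for Cdh3, and -0.047 and 0.16 for Cdh1.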

How the results depend on the processing

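No paired analysis was possible because each group has 1 library. Members called for DMBA numbered 2, against 1 under RLE scaling, DESeq2, thinning to the smallest total and removal of the length trend, 4 under the likelihood ratio test, and 1 to 4 with a library left out and DMBA as the only term (1 without control, 4 without DMBA or without BPA+DMBA, 3 without BPA). On all 4 libraries Cdh3 was called in every alternative (log2 1.34 to 1.45, highest adjusted p 0.0142, in edgeR under total counts). Snai2 on all 4 libraries was lost under RLE scaling, DESeq2, thinning and removal of the length trend. Its adjusted p ran from 0.0022 by the likelihood ratio test to 0.205 in DESeq2. Over all genes DMBA calls numbered 1962, against 675 in DESeq2, 1509 under RLE, 1502 thinned, 1076 with the length trend removed, 2455 by likelihood ratio, and, with DMBA as the only term, 969 without control, 1439 without BPA, 2093 without DMBA and 2729 without BPA+DMBA; BPA calls numbered 0, against 1 in DESeq2, 2 with no filter and 17 by likelihood ratio. At 1.5-fold, 4 members passed in DMBA against control and 2 each in BPA+DMBA against BPA, against DMBA and against control. Snai1 for DMBA became -0.041 with the length trend removed. Cdh3 for BPA became -0.00043 under RLE, -0.015 under total counts, -0.0071 with the length trend removed and -0.12 with BPA as the only term. In DMBA against control the median of all genes was 0.10 under total counts and -0.01 under TMM, and Cdh1 became 0.075, Vim 0.019 and Zeb1 0.011. With a library left out and the exposure as the only term, the DMBA term ran from -0.0042 to 0.40 for Vim, -0.19 to 0.42 for Snai1 and -0.0068 to 0.30 for Zeb1. The BPA term ran from -0.064 to 0.17 for Cdh1, -0.75 to 0.93 for Cdh3 (-0.73 without control), -0.13 to 0.37 for Vim, -0.27 to 0.61 for Fn1, -0.44 to 0.35 for Snai2 (0.082 without BPA), -0.30 to 0.53 for Twist1, -0.14 to 0.27 for Zeb1 and -0.45 to 0.44 for Zeb2. These fits change 2 choices together: with a group dropped and 1 term kept, the other exposure is unbalanced and enters the term by construction, so they say nothing about stability. For Snai2 the DMBA term in these fits was 0.51 without control and 0.45 without DMBA on the log2 scale. The same single term on all 4 libraries gave an edgeR adjusted p of 0.0191. Twist1, at 163 to 304 counts, is the member depth limits most.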
